A study of Mus musculus with 24 samples.

Results

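The kinesins, kinesin light chains, cytoplasmic dynein subunits and dynactin subunits of mouse dorsal root ganglia (DRG) were followed across nerve injury and the Mettl14cKO genotype, by RNA level and by m6A. They were taken as every gene symbol that starts with Kif or Klc and a digit, or with Dync, Dynl or Dctn. The rule found 66 of 24421 symbols in the RNA-seq table and the same 66 among 24411 in the MeRIP-seq table. Of these, 42 are called axonal genes here: 37 subunits of kinesin-1, -2 and -3, dynein-1 and dynactin, and 5 other kinesins of interphase cells (Kif2a, Kif21a, Kif21b, Kif26a and Kif26b), not all of which carry cargo. The rest are 12 mitotic kinesins, 7 ciliary or less studied kinesins and 2 subunits of the ciliary dynein-2. The other 3 are not motor subunits (Kif1bp, Kif16bos and Kif4-ps). In RNA-seq 52 of the 66 passed the filter on low counts, among them 38 of the 42 axonal and 9 of the 12 mitotic genes, and in MeRIP-seq 56 passed.

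All libraries came from L4/5 DRG of C57BL/6 mice. RNA-seq covered wild-type and Mettl14cKO mice, each naive and on day 1 after a sciatic nerve lesion (SNLD1), with 3 libraries in each of the 4 groups. MeRIP-seq, which sequences RNA pulled down with an m6A antibody (IP) beside the input RNA, was made in wild type only. It had 2 input and 3 IP libraries for each condition. In miCLIP the antibody is crosslinked to RNA so that the reads carry mutations beside the modified base. It had 1 wild-type library named naive and 1 named SNL, whose label gives no day. The treatment text is the same for every library and names a sham operation or a crush of the sciatic nerve, so whether naive mice had the sham is not given. The sources used here do not give the age of the animals or the Cre driver of the Mettl14cKO. They also do not say that libraries are separate animals, so a p-value reflects the spread among these libraries, which may be technical.

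Kinesins and cytoplasmic dynein are motors that walk along microtubules using ATP. In axons most transport kinesins carry vesicles, mitochondria and cytoskeletal proteins outwards, and dynein with its partner dynactin carries organelles and injury signals back to the cell body. Mitotic kinesins build the spindle and move chromosomes, and sensory neurons, which no longer divide, are not known to need them for division. METTL14 is a subunit of the methyltransferase that writes m6A on mRNA.

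Library totals ran from 5707837 to 12639160 counts in RNA-seq and from 846785 to 19653733 in MeRIP-seq, where 3 libraries held under 2000000. Mettl14 stood at 23.3, 22.9 and 24.1 CPM (counts scaled to library size) in wild-type naive libraries and at 20.1, 20.7 and 19.4 CPM at SNLD1. In Mettl14cKO it stood at 14.2, 18.85 and 15.0 CPM naive and at 14.2, 16.9 and 15.6 CPM at SNLD1. Every Mettl14cKO library lay below every wild-type library, and the genotype difference averaged over conditions was -0.46 ± 0.121 (log2 ± SE, adjusted p = 0.045). All 10 pan-neuronal markers were present in all 12 libraries. Summed levels of 4 Y-linked genes ran from 0 to 468 CPM and did not split by group: Mettl14cKO SNLD1 library 1 carried both Xist (8.52 CPM) and Y-linked RNA (130 CPM). A fit with the Y-linked sum as a covariate kept every motor call given here.

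After injury no axonal gene was called. In wild type 0 of the 38 axonal genes tested were called in either direction (edgeR quasi-likelihood test, Benjamini-Hochberg adjusted p under 0.05). Of the 38, 1 had an unadjusted p under 0.05, where 976 of the 13291 genes (7.34%) did. Over all 52 motor genes tested 1 was called, the mitotic Kif22, beside 1.02% of the 13291 genes tested. The median log2 change of the 38 was 0.02, with 24 above 0 and 14 below, beside a median of -0.015 for all genes tested. The summed level of the 42 axonal genes was 8441 ± 496.2 CPM (SD, n = 3) in wild-type naive libraries and 8756 ± 116.2 CPM at SNLD1. In these bulk samples, fewer cells of a type and less RNA per cell cannot be told apart.

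Among the kinesin-1 heavy chains, which carry vesicles and mitochondria outwards, Kif5a stood at 149, 127 and 180 CPM in wild-type naive libraries and at 167, 119 and 175 CPM at SNLD1. These ranges overlapped, and the log2 change was 0.02 ± 0.187. On the same log2 scale Kif5b had a change of 0.05 ± 0.142 and Kif5c of 0.02 ± 0.151. Klc1, a light chain that couples kinesin-1 to cargo, had a log2 change of 0.01 ± 0.260, with library 2 the lowest of each wild-type group at 74.5 and 58.6 CPM.

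The kinesin-3 motors carry synaptic vesicle precursors and mitochondria. Kif1a was at 149, 126 and 220 CPM naive and at 177, 136 and 180 CPM at SNLD1 in wild type. The groups overlapped, with log2 changes of -0.01 ± 0.191 for Kif1a and -0.03 ± 0.131 for Kif1b. Of the kinesin-2 subunits, which serve both axonal and ciliary transport, Kif3a had a log2 change of 0.07 ± 0.134, Kif3b of 0.24 ± 0.154 and Kif3c of 0.09 ± 0.233, and none was called. Kif2a, which removes tubulin from microtubule ends instead of walking, had a log2 change of -0.04 ± 0.142.

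Subunits of the retrograde motor were not called either. Dync1h1, the dynein heavy chain that holds the motor, stood at 108, 101 and 160 CPM in wild-type naive libraries and at 132, 94.7 and 131 CPM at SNLD1. These groups overlapped, and the log2 change was -0.04 ± 0.190. The intermediate chains, which bind dynactin, had log2 changes of -0.10 ± 0.135 for Dync1i1 and 0.05 ± 0.165 for Dync1i2, and the light intermediate chains, which bind cargo adaptors, of -0.16 ± 0.232 for Dync1li1 and 0.10 ± 0.174 for Dync1li2.

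Of the dynein light chains, Dynll1 had a log2 change of 0.17 ± 0.170, Dynlrb1 of -0.03 ± 0.204 and Dynlt3 of 0.14 ± 0.169. Dynll2 was at 31.6, 14.2 and 40.1 CPM naive and at 24.2, 15.7 and 20.3 CPM at SNLD1, and its log2 change of -0.53 ± 0.320 was not called (adjusted p = 0.838). Dynlt1f, at 0.87 to 1.75 CPM naive and 1.94 to 3.78 CPM at SNLD1, had the only unadjusted p under 0.05 among the axonal genes in wild type (log2 1.06 ± 0.460, adjusted p = 0.594). It has near-identical copies (Dynlt1a, Dynlt1b and Dynlt1c) among which counting could split reads, so its level is uncertain.

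Dctn1, the large dynactin subunit that binds microtubules, was at 21.4, 15.3 and 23.3 CPM naive and at 20.1, 13.0 and 16.8 CPM at SNLD1 in wild type. The groups overlapped (log2 -0.27 ± 0.215). Dctn2, which links the shoulder of dynactin to its filament, had a log2 change of -0.10 ± 0.163, Dctn3 of -0.04 ± 0.280 and Dctn4 of 0.23 ± 0.143. Dctn2 overlaps Kif5a and Mbd6 in the genome, with Kif5a only from position 127266262 to 127266348 of chromosome 10. Whether counting used strand is not given, so reads in the overlaps cannot be assigned to 1 gene here.

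The symbol rule does not take in 39 adaptors, regulators and partner subunits of these motors. Among them are the Trak, Bicd and Hook adaptors, Lis1 (gene Pafah1b1), the dynactin subunit Actr1a and the kinesin-2 subunit Kifap3. Of the 39, 37 were tested and 0 were called after injury in either genotype. Of all genes tested, 1.02% were called in wild type and 0.685% in Mettl14cKO. In wild type 18 were above 0 and 19 below, and 1 had an unadjusted p under 0.05, where 7.34% of all genes tested did.

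Among the mitotic kinesins, 1 gene was called after injury. Kif22 encodes Kid, a chromokinesin that binds DNA and pushes chromosome arms towards the spindle equator. It stood at 7.25, 10.1 and 8.06 CPM in wild-type naive libraries and at 31.6, 32.5 and 37.5 CPM at SNLD1. In Mettl14cKO it stood at 10.01, 9.60 and 9.19 CPM naive and at 33.6, 44.1 and 26.5 CPM at SNLD1. In both genotypes every SNLD1 library lay above every naive library. Kif22 rose 4.02-fold in wild type (log2 2.01 ± 0.206, adjusted p = 1.33e-05) and 3.62-fold in Mettl14cKO (log2 1.85 ± 0.209, adjusted p = 8.05e-05), where 0.685% of genes tested were called. The difference between these injury effects was -0.15 ± 0.288 on the log2 scale (adjusted p = 0.998), and the genotype difference was 0.19 naive and 0.04 at SNLD1. Averaged over genotypes, Kif22 was the only motor gene called (log2 1.93 ± 0.146, adjusted p = 1.51e-07), where 2.56% of genes tested were.

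Kif22 was also higher at SNLD1 in the wild-type MeRIP-seq libraries. Its input level was 14.7 and 16.4 CPM naive and 51.1 and 77.75 CPM at SNLD1. In IP libraries it was 8.27, 25.45 and 7.52 CPM naive and 79.96, 26.6 and 61.3 CPM at SNLD1. Each SNLD1 library again lay above each naive library of its kind, with IP library 2 of the 2 conditions the closest pair. The log2 change was 2.06 ± 0.936 in input (unadjusted p = 0.043) and 2.07 ± 0.775 in IP (unadjusted p = 0.0165), and neither passed after adjustment over 14705 genes (adjusted p = 1 in both, edgeR).

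**Figure D1:**
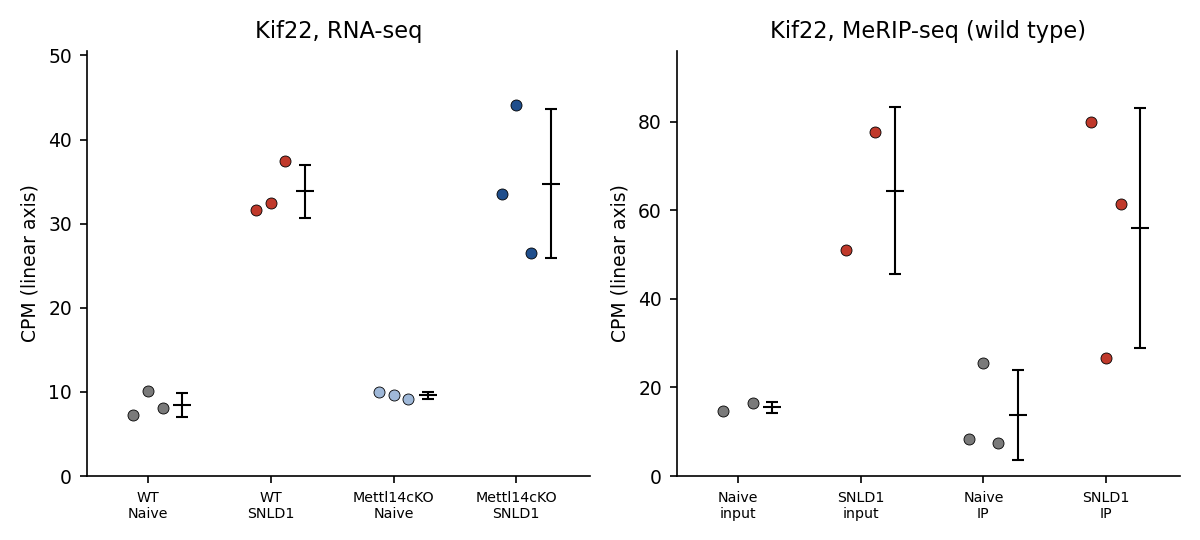
Kif22 level in CPM (linear axis from 0) in each RNA-seq library by genotype and condition (left) and in each wild-type MeRIP-seq library by condition and fraction (right); points are libraries and the bar beside them is the mean ± SD. In RNA-seq the naive libraries of both genotypes sit between 7.25 and 10.1 CPM and the SNLD1 libraries between 26.5 and 44.1 CPM.

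No other mitotic kinesin was called. Kif11 (Eg5), which pushes spindle poles apart, was at 5.03, 6.68 and 2.66 CPM in wild-type naive libraries and at 1.99, 6.63 and 4.64 CPM at SNLD1. Kif23, which bundles the midzone in cytokinesis, was at 2.52, 4.23 and 1.37 CPM naive and at 0.613, 4.80 and 2.93 CPM at SNLD1. Both pairs of groups overlapped, with log2 changes of -0.06 ± 0.384 for Kif11 and 0.13 ± 0.524 for Kif23. Kif20b, another kinesin of cytokinesis, had a log2 change of -0.18 ± 0.340. Across the 8 tested mitotic kinesins other than Kif22, log2 changes in wild type ran from -0.59 (Kif15) to 0.81 (Kif4), and none was called.

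Kif4, the X-linked chromokinesin that shortens midzone microtubules, was at 1.26, 1.23 and 0.836 CPM naive and at 1.38, 2.97 and 1.34 CPM at SNLD1 in wild type, so its groups did not overlap either (log2 0.81 ± 0.527, adjusted p = 0.877). In all, 3 of the 52 tested motor genes (Kif22, Kif4 and Dynlt1f) had every wild-type SNLD1 library above every naive library, where 6.08% of all genes tested did, and 0 had every library below, where 4.95% did. Of the markers of dividing cells, 0 of 9 tested of 12 (among them Mki67, Top2a and Cdk1) were called, their median log2 change was 0.295, and their summed level ran from 36.8 to 85.2 CPM naive and from 48.9 to 92.8 CPM at SNLD1 in wild type. None of the 12 was at 0 in all libraries of a group.

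The bases before the annotated starts of Kif22, Kif11 and Kif23 are shown because Kif22 was called and the other 2 spindle kinesins were not. They are RefSeq sequence of GRCm38.p6, 5′ to 3′ on the strand of the gene, up to 250 bases long and stopped where the annotated gene begins: Kif22 lies on the minus strand at chr7:127042468-127042670, Kif11 on the plus strand at chr19:37376132-37376381 and Kif23 on the minus strand at chr9:61946811-61947049. Capitals mark matches, on either strand, to a CCAAT box (CCAAT), a GC box (GGGCGG) or the cell-cycle element CHR (TTTGAA), all 3 of which are found before many cell-cycle genes.
Kif22: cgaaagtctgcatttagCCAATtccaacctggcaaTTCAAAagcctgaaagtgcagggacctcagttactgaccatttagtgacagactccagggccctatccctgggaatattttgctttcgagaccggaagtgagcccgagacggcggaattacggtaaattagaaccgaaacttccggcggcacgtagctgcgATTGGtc
Kif11: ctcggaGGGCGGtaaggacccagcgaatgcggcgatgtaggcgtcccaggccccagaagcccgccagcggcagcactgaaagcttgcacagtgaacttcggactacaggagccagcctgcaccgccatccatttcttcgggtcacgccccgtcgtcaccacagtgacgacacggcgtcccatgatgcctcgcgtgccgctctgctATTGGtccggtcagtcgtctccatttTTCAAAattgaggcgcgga
Kif23: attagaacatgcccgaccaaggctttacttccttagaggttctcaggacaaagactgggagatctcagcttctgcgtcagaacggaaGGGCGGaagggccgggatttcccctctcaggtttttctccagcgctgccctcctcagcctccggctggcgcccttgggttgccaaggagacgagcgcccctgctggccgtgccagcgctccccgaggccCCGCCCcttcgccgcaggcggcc

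Kif22 held 2 CCAAT matches, at -233 and -54 from its start, and 2 CHR matches, at -215 and -17, the latter inside the annotated gene and so not printed. It held no GC box match. Kif11 held 1 match of each kind and Kif23 a CCAAT match, which falls at -7 and is also not printed, and 2 GC boxes. Among the 11 mitotic kinesins with a RefSeq window, 7 held CCAAT, 6 the GC box, 5 CHR and 2 the E2F motif TTTNGCGC. Of all 32851 windows of 250 bases, 33.8% held CCAAT, 32.7% the GC box, 16% CHR and 1.13% E2F. Of the 51 motor genes with a window, 7 had 2 windows. The AP-1 motif TGANTCA was in 0 of the 51 and in 6.75% of all windows, and E2F was in 3 of the 51. A match is a description of letters and not a site of binding.

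Between genotypes no motor gene was called in naive ganglia. Of the 52 genes tested 0 were called, where 0.286% of all genes tested were. Of the 38 axonal genes, 0 had an unadjusted p under 0.05, where 1010 of the 13291 genes (7.6%) did. The median log2 difference of the 38, Mettl14cKO over wild type, was -0.04, beside 0.00386 for all genes. The smallest p-values were those of the dynein intermediate chain Dync1i1 (-0.27 ± 0.135, adjusted p = 0.694) and, above 0, of Kif13a, a kinesin-3 motor of endosomes (0.48 ± 0.286, adjusted p = 0.789). Dync1i1 stood at 440, 484 and 473 CPM in wild-type naive libraries and at 376, 379 and 407 CPM in Mettl14cKO naive libraries, without overlap. Such a gap without overlap was seen in 2 motor genes below (Dync1i1 and Klc4) and 1 above (Dynlrb2), where 4.65% and 6.11% of all genes tested showed it.

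At SNLD1, 2 kinesins were lower in Mettl14cKO and no motor gene was called higher, where 0.512% of genes tested were called lower and 0.948% higher. Kif21a is a kinesin-4 family motor that slows microtubule growth at the cell cortex. It stood at 762, 856 and 862 CPM in wild-type SNLD1 libraries and at 466, 459 and 512 CPM in Mettl14cKO SNLD1 libraries. The groups did not overlap, and Kif21a was lower by 42.0% (log2 -0.79 ± 0.143, adjusted p = 0.0107). In naive libraries it stood at 766, 804 and 637.5 CPM in wild type and at 558, 645 and 672 CPM in Mettl14cKO, which overlapped (-0.24 ± 0.143, adjusted p = 0.804).

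Kif5b, the kinesin-1 heavy chain present in most tissues, stood at 701, 709 and 675 CPM in wild-type SNLD1 libraries and at 419.5, 491 and 425 CPM in Mettl14cKO SNLD1 libraries. The groups did not overlap, and Kif5b was lower by 35.9% (log2 -0.64 ± 0.143, adjusted p = 0.0293). Its naive levels were 773, 660 and 576 CPM in wild type and 598, 549.8 and 549 CPM in Mettl14cKO, which overlapped (-0.24, adjusted p = 0.786). Averaged over conditions, Kif21a (-0.51 ± 0.101, adjusted p = 0.00852) and Kif5b (-0.44 ± 0.101, adjusted p = 0.0211) were again the motor genes called, where 3.33% of genes tested were.

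Both calls depended on the set of libraries, while the size of the difference moved little: over all alternatives run at SNLD1 it was -0.84 to -0.74 for Kif21a and -0.72 to -0.60 for Kif5b on the log2 scale. At SNLD1 Kif21a lost its call without wild-type library 3 (adjusted p = 0.0560) or Mettl14cKO library 1 (0.0845). Kif5b lost it without wild-type library 1 (0.0885), 2 (0.0751) or 3 (0.111), or without Mettl14cKO library 1 (0.191) or 3 (0.0680). The call of Kif21a averaged over conditions held without each library in turn, with a highest adjusted p of 0.0346, and that of Kif5b did not.

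Kif5a, the neuronal heavy chain, was not called. It stood at 165, 149.8 and 167 CPM in Mettl14cKO SNLD1 libraries, inside the wild-type range of 119 to 175 CPM (log2 0.06 ± 0.187, adjusted p = 0.921). Kif5c, also neuronal, was at 371, 481 and 467 CPM in wild type and at 317, 297 and 373 CPM in Mettl14cKO, with 1 library of each group overlapping (-0.42 ± 0.152, adjusted p = 0.198). The summed level of the 3 heavy chains was 1289 ± 42.9 CPM (SD, n = 3) in wild-type and 934.6 ± 31.7 CPM in Mettl14cKO SNLD1 libraries.

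Kif3b, a motor subunit of kinesin-2, stood at 33.7, 41.0 and 37.7 CPM in wild-type and at 24.2, 26.2 and 26.2 CPM in Mettl14cKO SNLD1 libraries, without overlap. Its log2 difference of -0.55 ± 0.157 missed the threshold in edgeR (adjusted p = 0.085) and passed in DESeq2 (0.0400), as did that of Kif1b (-0.40 ± 0.132, adjusted p = 0.147 in edgeR and 0.0358 in DESeq2). Kif1b was at 413, 399 and 445.5 CPM in wild type and at 315, 323 and 314 CPM in Mettl14cKO, again without overlap. Kif16b, an endosome motor (-0.56 ± 0.176, adjusted p = 0.123), Kif2a (-0.43 ± 0.143, adjusted p = 0.160) and Kif3a (-0.28 ± 0.134, adjusted p = 0.361) had every Mettl14cKO library below every wild-type library and were not called. Kif1a overlapped (-0.18 ± 0.192).

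**Figure D2:**
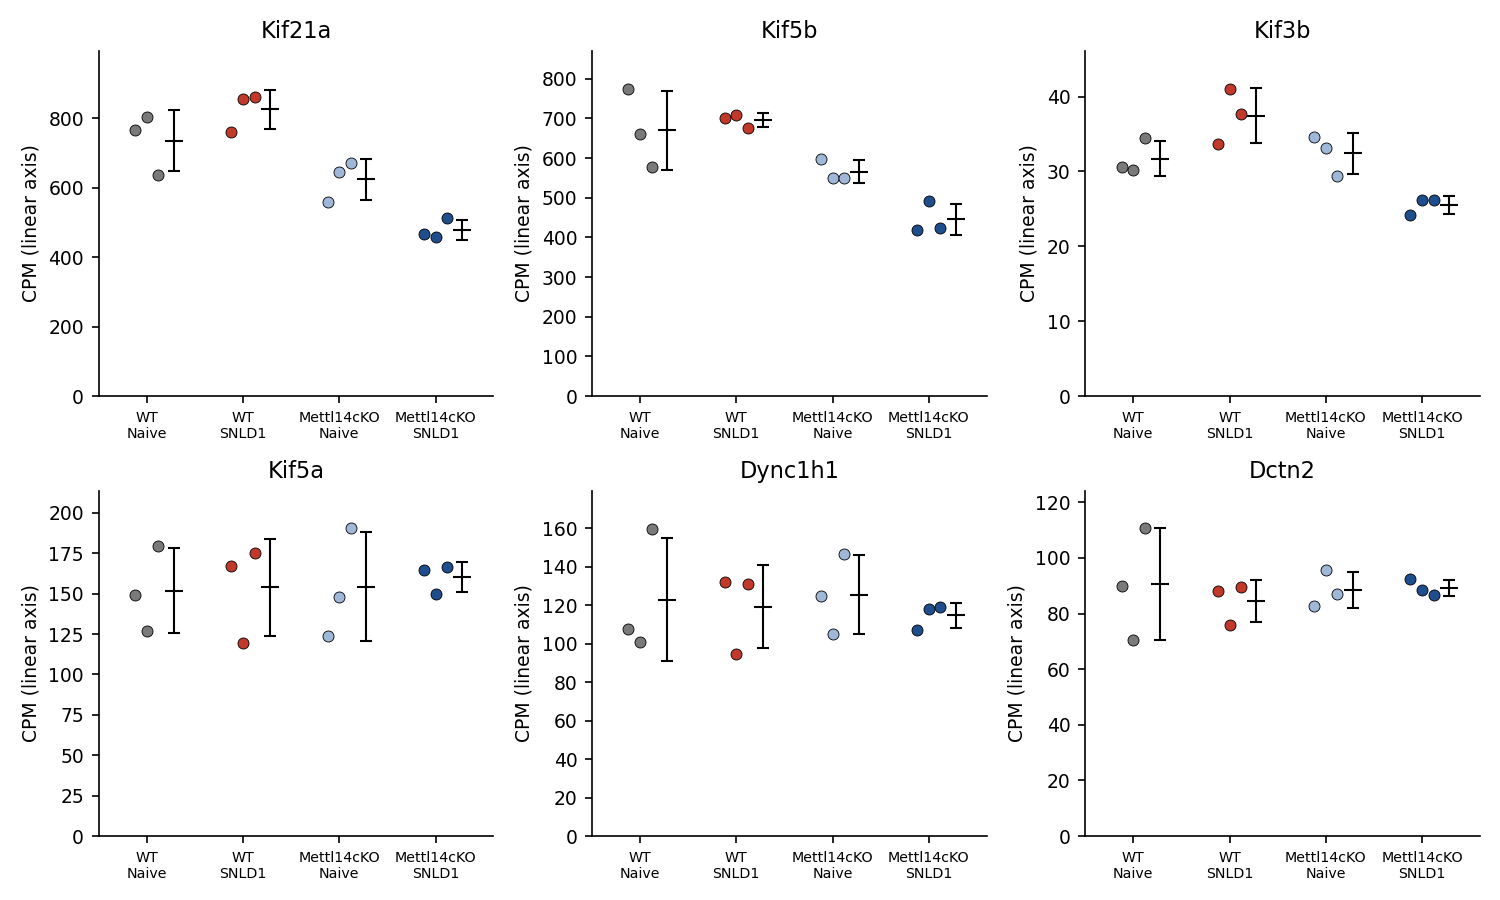
Level in CPM (linear axes from 0, a scale for each gene) of Kif21a, Kif5b, Kif3b, Kif5a, Dync1h1 and Dctn2 in each of the 12 RNA-seq libraries by group; points are libraries and the bar beside them is the mean ± SD of 3. In Kif21a, Kif5b and Kif3b the 3 Mettl14cKO SNLD1 libraries lie below all others, while in Kif5a, Dync1h1 and Dctn2 they lie within the range of the other groups.

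Kinesins lay below 0 more uniformly than dynein subunits at SNLD1, in counts that no test compares. Of the 19 axonal kinesin and light chain genes tested, 17 lay below 0 and 2 above, with a median log2 difference of -0.42. Without Kif2a, Kif21a, Kif21b and Kif26b, 13 of 15 lay below 0, with a median of -0.40. Over all genes tested 50.5% lay above 0. Of the 19, 8 had an unadjusted p under 0.05, where 1910 of the 13291 genes (14.4%) did and 918 of these were lower. Of 19 dynein and dynactin genes tested, 11 lay below 0 and 8 above, with a median of -0.04, and all genes tested had a median of 0.00401. The summed level of the axonal kinesins was 3424 to 3668 CPM in wild-type and 2471 to 2622 CPM in Mettl14cKO SNLD1 libraries, which did not overlap. Kif21a and Kif5b, the 2 kinesins called in these same libraries, hold a large part of this sum. In the lists without these 2, kinesin-2 summed to 515.9 to 547.3 and 411.9 to 457.6 CPM, without overlap. Kinesin-3 summed to 571.9 to 664.2 and 478.1 to 513.2 CPM, also without overlap. Light chains summed to 63.59 to 152.4 and 107.4 to 118.6 CPM, which overlapped. The summed level of dynein and dynactin was 5079 to 5433 CPM and 5048 to 5511 CPM, which overlapped. The dynactin subunit Actr1a, given below, is outside the symbol rule and not in this sum. In naive libraries the median of the axonal kinesins was -0.06, and the summed kinesin level of 2951 to 3250 CPM in Mettl14cKO overlapped that of 3189 to 3553 CPM in wild type.

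Dync1h1 stood at 107, 118 and 119 CPM in Mettl14cKO SNLD1 libraries, within the wild-type range (log2 -0.06 ± 0.191), and the differences of Dctn1 and Klc1 were 0.07 and -0.07. Over all 52 motor genes, 12 had every Mettl14cKO SNLD1 library below every wild-type one, where 10.3% of all genes tested did, and 0 had every library above, where 9.66% did. The 12 were Kif1b, Kif2a, Kif3a, Kif3b, Kif4, Kif5b, Kif16b, Kif21a, Kif21b, Dync2h1, Dynlt1f and Dynlt3.

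**Figure D3:**
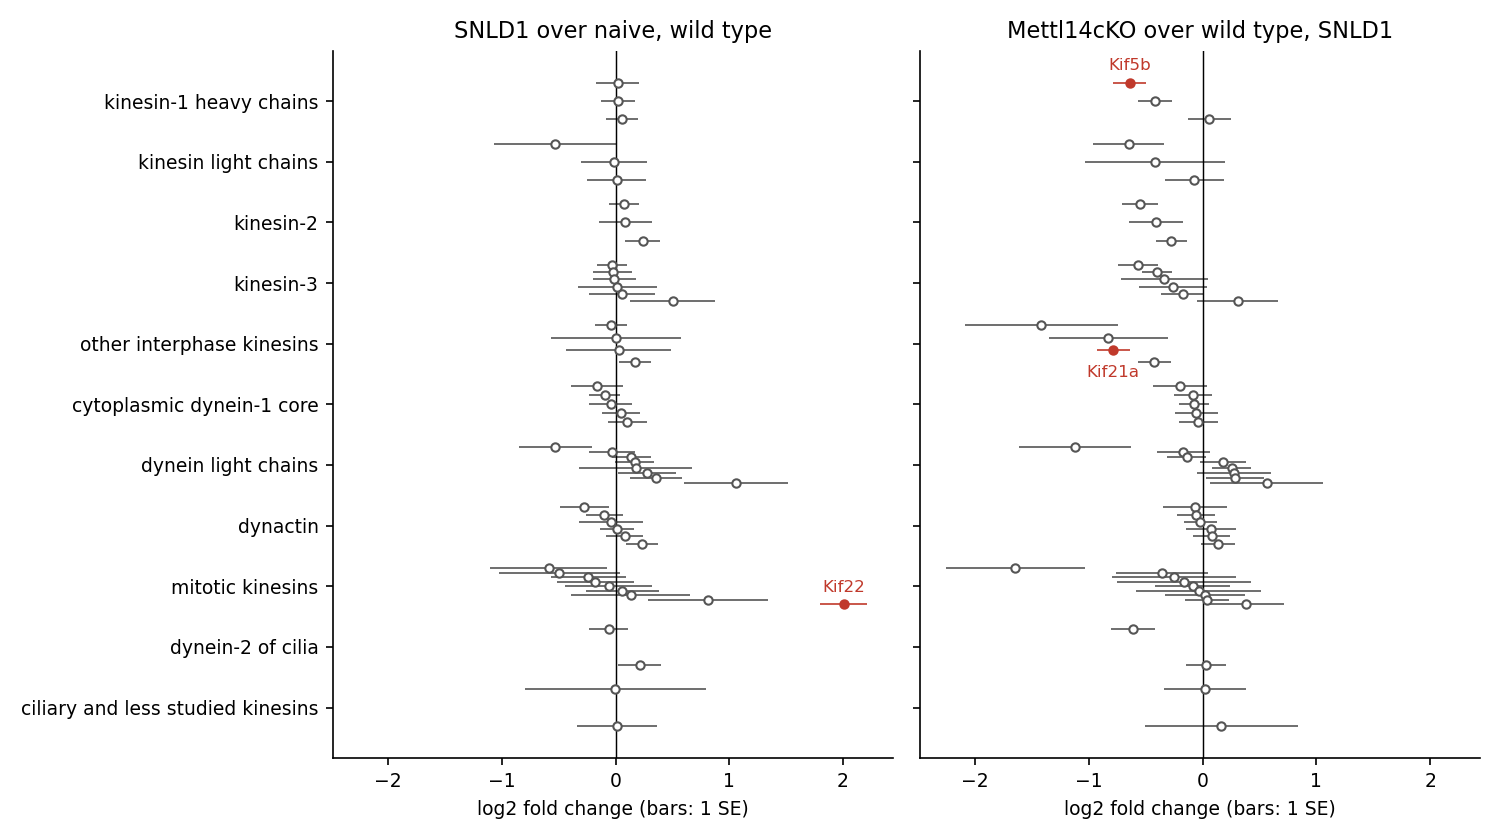
Log2 fold change with 1 SE of each tested motor gene, by role, for SNLD1 over naive in wild type (left) and Mettl14cKO over wild type at SNLD1 (right); filled red points with names passed an adjusted p of 0.05 and open points did not. At left most axonal genes lie near 0, Dynlt1f (above) and Dynll2 (below) lie further out, and Kif22 stands at 2.01. At right most kinesin points lie below 0, with Kif21a at -0.79 and Kif5b at -0.64, and dynein core and dynactin points lie near 0.

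Marker levels of some cell types differed between genotypes, and only the fibroblast sums lay apart in both conditions. Fibroblast markers summed to 1696 to 2142 CPM in wild-type and 2616 to 4277 CPM in Mettl14cKO SNLD1 libraries, and 2 of 5, Dcn (log2 0.97, adjusted p = 0.020) and Pdgfra (log2 1.43, adjusted p = 0.005), were called higher. In naive libraries they summed to 1720 to 1937 and 1976 to 3374 CPM, also without overlap. Satellite glia markers (4 genes) summed to 1443 to 1867 and 781 to 957 CPM at SNLD1 and to 1648 to 2108 and 669.5 to 2121 CPM naive, with 0 called at SNLD1 and Fabp7 called lower averaged over conditions (-1.34, adjusted p = 0.042). Pan-neuronal markers summed to 13370 to 15560 and 12000 to 13770 CPM at SNLD1, which overlapped, and to 14390 to 14970 and 11140 to 13540 CPM naive, which did not, with 7 of 10 below 0 and 0 called at SNLD1, and Nefl (-0.79), Nefm (-0.65) and Elavl4 (-0.41) called lower averaged over conditions. Among the 5 macrophage and 5 endothelial and mural markers 0 were called. No marker in these lists was at 0 in every library of a group, and their part in the kinesin differences was not tested.

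At SNLD1 the difference moved with gene span over all genes as well. Over all genes matched to RefSeq, the median log2 difference at SNLD1 was 0.137 for the 3129 genes spanning under 10 kb, -0.015 for 8093 genes of 10 to 100 kb and -0.107 for 2037 genes of 100 kb and over. The 10 motor genes of 100 kb and over had a median of -0.49, the 37 of 10 to 100 kb of -0.055 and the 5 under 10 kb of -0.088. In naive ganglia the medians of all genes were -0.019, 0.007 and 0.019, from the shortest to the longest class. Kif21a spans 117108 bases and Kif5b 40520. The part of span in these differences was not tested.

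Of the 37 tested adaptors, regulators and partner subunits, 1 was called at SNLD1 and was higher in Mettl14cKO. Of all genes tested, 1.46% were called in either direction and 0.948% higher. Actr1a encodes Arp1, the actin-related protein of the dynactin filament. It stood at 104, 97.9 and 114.5 CPM in wild-type and at 174, 176 and 187 CPM in Mettl14cKO SNLD1 libraries, without overlap (log2 0.76 ± 0.153, adjusted p = 0.018). Naive libraries showed 91.8, 95.7 and 118 CPM in wild type and 139, 183.5 and 160.0 CPM in Mettl14cKO, also without overlap (0.66 ± 0.152, adjusted p = 0.098). Such a gap above was seen in 9.66% of all genes tested at SNLD1 and in 6.11% naive. Of the 37, 14 lay above 0 and 23 below (median -0.07). Kifap3, the cargo-binding subunit of kinesin-2 (-0.55 ± 0.152, adjusted p = 0.076), and Bicd2, a dynein adaptor (-0.77 ± 0.208, adjusted p = 0.073), did not pass.

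After injury in Mettl14cKO, again no axonal gene was called. Of the 38 axonal genes tested 0 were called, where 0.685% of all genes tested were, and 8 had an unadjusted p under 0.05, where 1415 of the 13291 genes (10.6%) did. The 19 axonal kinesins had a median log2 change of -0.34, with 16 below 0, and the 19 dynein and dynactin genes a median of 0.09, with 13 above 0. These values use the same Mettl14cKO SNLD1 libraries as the genotype comparison and are not independent of it. Kif16b (-0.62 ± 0.177, adjusted p = 0.145), Kif21a (-0.38 ± 0.143, adjusted p = 0.306) and Kif5b (-0.35 ± 0.143, adjusted p = 0.382) had every SNLD1 library below every naive library. Such a gap was seen in 10 of the 52 motor genes below, where 9.38% of all genes tested showed it, and in 2 above, where 8.32% did.

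Whether injury acted differently in the genotypes was tested directly, and 0 motor genes and 0% of genes tested were called (edgeR). Over all genes 492 had an unadjusted p under 0.05, and DESeq2 called 3, none of them a motor gene. The log2 difference of injury effects was -0.55 ± 0.202 for Kif21a (unadjusted p = 0.0139, adjusted p = 0.998) and -0.40 ± 0.202 for Kif5b (unadjusted p = 0.0634). That the kinesins were lower in Mettl14cKO at SNLD1 only is therefore not shown.

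MeRIP-seq called no motor gene for IP over input in naive or SNLD1 wild-type ganglia, nor for its change with injury, and 0% of the 14705 genes tested were called. At an unadjusted p under 0.05, 915, 608 and 30 genes stood out in these comparisons, among them 5 motor genes naive (Dctn4, Kif20a, Kif2a, Dynlrb1 and Kif26b) and 0 at SNLD1. DESeq2 called 4, 0 and 0 genes, with no motor gene among them. A fit with the library number as a block, whose numbers did not pair IP with input libraries (correlations of -0.289 to -0.0173), called 1078 genes naive, among them Dync1i2 (log2 -3.11, adjusted p = 0.0350) and Dynlrb1 (-2.82, adjusted p = 0.00823). At SNLD1 it called 936, among them Dctn2 (-1.92, adjusted p = 0.0482) and Dynlrb1 (-2.36, adjusted p = 0.0166). The median SE over all genes was 1.08 log2 units naive and 1.09 at SNLD1. Ratios of IP to input are relative to those of other genes, because scaling removes any overall gap between the fractions.

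Kif3b lay higher in IP than in input and was not called. Its input level was 37.9 and 40.1 CPM naive and 41.6 and 52.3 CPM at SNLD1, and its IP level was 155, 117 and 75.4 CPM naive and 198, 143 and 89.5 CPM at SNLD1. Every IP library lay above every input library, and the log2 ratio of IP to input was 1.57 ± 0.77 naive and 1.61 ± 0.77 at SNLD1. Dynll1, the light chain shared by dynein and many other complexes, was also above its mean input in all 6 IP libraries (log2 ratios of 0.59 to 1.86 with a pseudocount of 1 CPM), as were Kif16b (0.30 to 1.98) and Kif26b (0.55 to 2.62). No other motor gene of the 56 tested was. These 4 are 7.14% of the 56, and 10.7% of all genes tested lay above their mean input in all 6.

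Below the mean input in all 6 IP libraries were 13 motor genes, which are 23.2% of the 56, where 19.8% of all genes tested lay there. They included the neuronal kinesin-1 chains Kif5a (-1.15 to -0.16) and Kif5c (-1.53 to -0.07), Dync1i2 (-3.98 to -0.02), Dctn4 (-3.73 to -0.68) and Dynlrb1 (-2.93 to -0.90). The median of all genes was itself 0.005, -0.359 and -0.151 in naive IP libraries 1, 2 and 3 and 0.003, -0.516 and -0.040 in those of SNLD1. Set against the median of each library, 9 motor genes lay below in all 6 (16.1%, beside 16% of all genes tested) and 6 above (10.7%, beside 14.8%). Kif5a, Kif5c, Dctn4 and Dynlrb1 were still among the 9, and Dync1i2 and Dync1i1 were not. For Dynlrb1, a dynein light chain of the roadblock family, the fitted log2 ratio was -1.98 ± 0.87 naive and -1.67 ± 0.86 at SNLD1, called only with the block given above. Over the 56 tested motor genes 19 lay above 0 and 37 below in each condition, with medians of -0.31 naive and -0.39 at SNLD1, beside 0.0663 and 0.0975 for all genes. IP library 3 of each condition had TMM scaling factors of 0.894 and 0.893, inside the range of the inputs (0.798 to 0.907), while the other IP libraries had 1.15 to 1.35.

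For Kif22 the log2 ratio of IP to input was -0.22 ± 0.831 naive and -0.20 ± 0.819 at SNLD1, a change of 0.02 ± 1.153. For the kinesins lower in Mettl14cKO, log2 ratios in the 6 wild-type IP libraries ran from -0.90 to 0.41 (Kif21a) and from -1.64 to 0.79 (Kif5b). Neither was called, but no gene at all was called, so this does not show that they lack m6A.

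**Figure D4:**
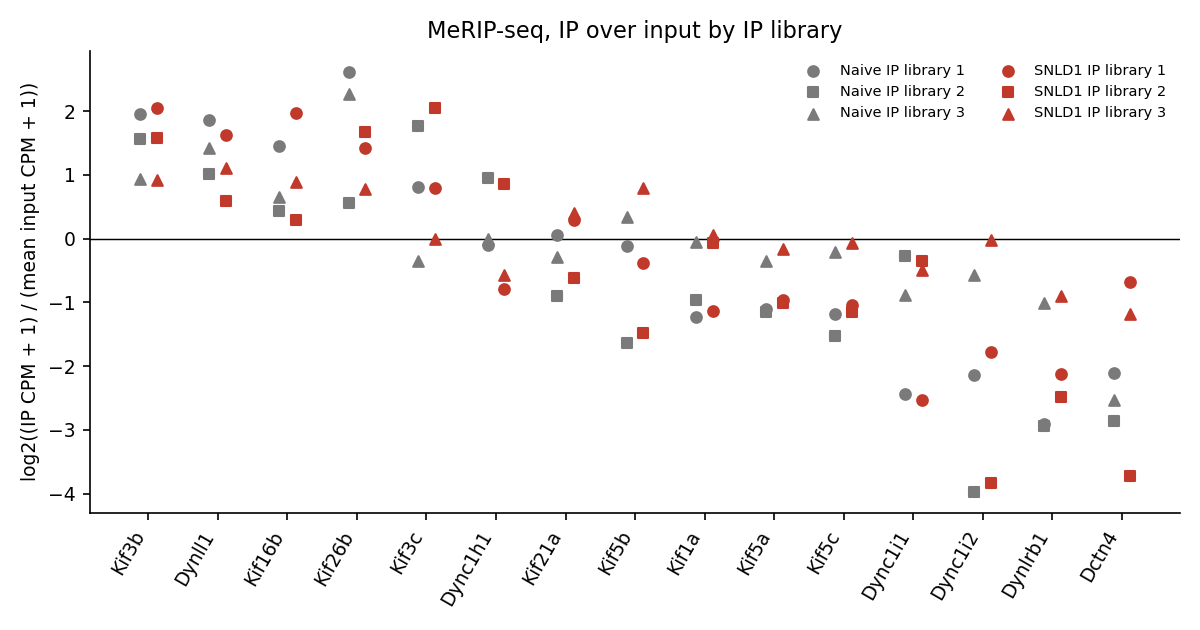
Log2 of IP CPM over mean input CPM of the same condition (pseudocount 1 CPM) for 15 motor genes in each of the 6 wild-type IP libraries; grey points are naive, red points SNLD1, and marker shapes give the library number. Kif3b, Dynll1, Kif16b and Kif26b lie above 0 in all 6 libraries, and Kif5a, Kif5c, Dync1i1, Dync1i2, Dynlrb1 and Dctn4 below 0 in all 6, where the median of all genes ranges from -0.516 to 0.005.

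By miCLIP the axonal motors carried nearly all motor sites and the mitotic kinesins almost none. The authors' lists, 1 library per condition and so without a test, held 205 sites in motor genes naive and 270 after SNL, of 14446 and 18677 in all. Axonal genes held 203 and 264 of them and mitotic kinesins 0 and 1. The ratio of SNL to naive sites was 1.32 in motor genes and 1.29 over the whole lists. The same base was listed in both conditions 70 times, which is 34.1% of naive and 25.9% of SNL sites, beside 26.5% and 20.5% over the whole lists. At least 1 site lay in 31 of the 52 motor genes tested in RNA-seq (59.6%), beside 43.5% of the 13259 genes tested that matched RefSeq. Listing a site takes reads over the base, and the mitotic kinesins summed to 42.8 CPM in wild-type naive libraries where the axonal genes summed to 8441. The part of read depth in this split was not tested.

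Few sites had at least 3 mutated reads: 6 of 205 naive (2.93%) and 7 of 270 SNL sites (2.59%) in motor genes, beside 2.06% and 1.95% over the whole lists. Positions in Klc1 and Klc2 reached this in both lists. The Klc1 site lay at position 111759009 of chromosome 12 (mm10), with the motif TGACA: 3 of 23 reads were mutated naive (13.0%, exact binomial 95% interval 2.78 to 33.6%) and 4 of 25 after SNL (16%, 4.54 to 36.1%). In Klc2, at position 5118156 of chromosome 19, with the motif AGACC, 4 of 11 reads (36.4%, 10.9 to 69.2%) and 4 of 15 (26.7%, 7.79 to 55.1%) were mutated. Both shares lie within each other's interval. Intervals cover counting error only.

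Among kinesins, Kif5a held 27 naive and 30 SNL sites, 13 at the same base, with 209 and 244 reads over them. Kif1a held 28 and 28 (5 the same), Kif3c 19 and 23 (11 the same) and Kif1b 18 and 12 (3 the same). Kif21a held 9 and 8 with none at the same base, and Kif5b 2 and 3 with 1 the same. Kif3b held 2 and 7.

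In the dynein machinery the lists were furthest apart in number at Dync1h1. It held 10 sites under 37 reads naive and 31 sites under 158 reads after SNL, 3 at the same base. Its RNA-seq log2 change with injury was the -0.04 ± 0.190 given above. In MeRIP-seq its input level was 287 and 335 CPM naive and 238 and 890 CPM at SNLD1. The log2 change of its IP over input was -0.34 ± 1.205 and was not called. The part of read depth in the site numbers was not tested. The 5 dynein-1 core genes together, Dync1h1 included, held 20 and 47 sites, a ratio of 2.35, dynactin 20 and 30, and kinesin-3 motors 58 and 52. Dynll2 held 14 and 20 (9 the same) and Dctn1 16 and 17 (6 the same).

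**Figure D5:**
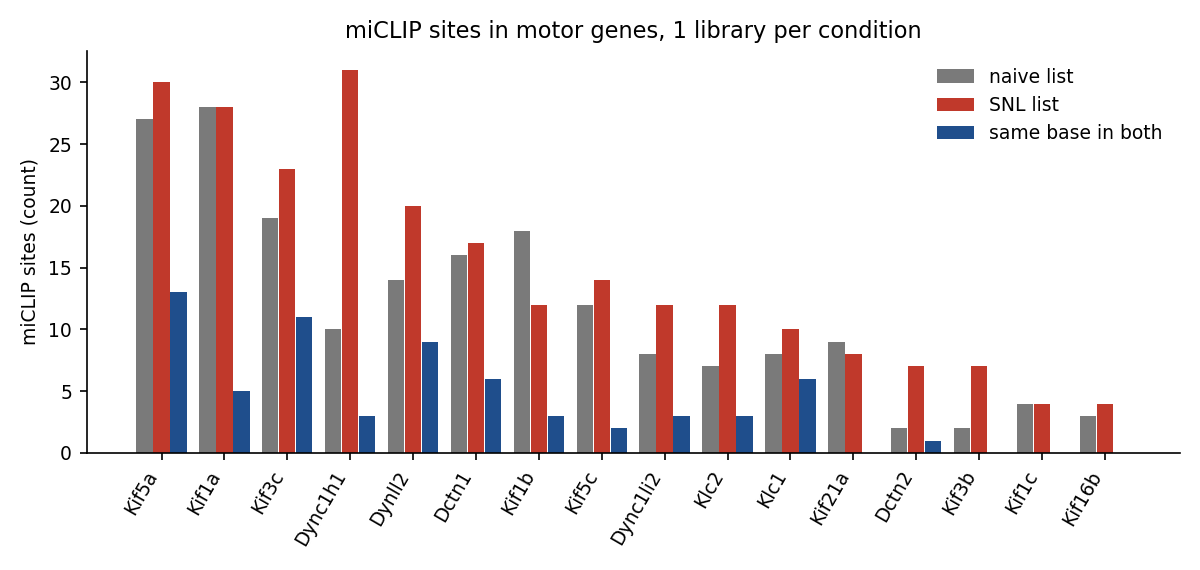
Number of miCLIP sites (linear axis from 0) in the 16 motor genes with the most sites, in the naive list (grey), the SNL list (red) and at the same base in both (blue), 1 library per condition. Kif5a, Kif1a, Kif3c and Dync1h1 have the most sites, and Dync1h1 has 10 naive and 31 SNL.

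In the genes whose strand was given, 23% of the 331 motor sites lay in the last 10% of the RefSeq span, beside 34.8% of 24165 sites over all such genes tested. Kif1a had 32.1% of its sites there, Dync1h1 26.8%, Kif3c 14.3%, Dctn1 12.1% and Kif21a 5.88%. The most frequent 5-base motif at the 405 motor positions was GGACC (14.8%, beside 15.6% of all 29291 positions), followed by GGACT (11.6% beside 11%) and AGACC (11.1% beside 9.96%), and TGACA made up 8.89% beside 5.61%. The lone mitotic site was in Kif22 after SNL, at position 127027983 of chromosome 7, with the motif GGACT, 254 bases from the end of the gene and with 1 of 3 reads mutated (33.3%, exact binomial 95% interval 0.84 to 90.6%). For 15 motor genes, Kif5a, Kif5b, Dynll2 and Klc2 among them, the strand was not given and every site in the span was counted, so they are not among those shares.

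No ciliary motor gene was called. Dync2h1 is the heavy chain of dynein-2, which drives retrograde transport in cilia. It stood at 28.7, 35.3 and 29.9 CPM in wild-type and at 23.1, 15.8 and 22.6 CPM in Mettl14cKO SNLD1 libraries, without overlap (log2 -0.62 ± 0.193, adjusted p = 0.125). Its partner Dync2li1 differed by 0.03 ± 0.176. Kif9 and Kif24, the ciliary kinesins tested, were not called. Kif7, a kinesin of hedgehog signalling in cilia, had at most 0.767 CPM and was not tested. The other 13 untested genes were Dynlt1c, Kif12, Kif14, Kif16bos, Kif17, Kif18b, Kif19a, Kif26a, Kif27, Kif2b, Kif4-ps, Kif6 and Klc3, of which Dynlt1c, Kif2b and Kif16bos were at 0 in all 12 libraries and none exceeded 1.64 CPM.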

How the data were processed

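Per the labels' protocols, L4/5 DRG RNA was extracted with Trizol, selected for poly(A) and made into libraries with Smart-seq2. The deposited RNA-seq and MeRIP-seq tables hold counts per gene symbol, unnormalised. The miCLIP lists deposited by the authors give a value of unit other for each site, which equalled mutated reads over all reads at the base to within 4.6e-07. The submitters' processing notes name Trimmomatic, STAR, DESeq2 and mm10. Which tool did what, what counted the reads, whether by strand, and what called sites is not given in the sources used here.

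Here edgeR 4.0.16 was run under R 4.3.3 (filterByExpr, TMM, glmQLFit, glmQLFTest), with all 12 RNA-seq libraries in a fit of 4 groups and all 10 MeRIP-seq libraries in another. Benjamini-Hochberg adjustment ran over 13291 and 14705 genes, and calls needed an adjusted p below 0.05. SE is the log2 change over the root of F. CPM use the TMM-adjusted library total. The code was tested on simulated counts. Alternatives were DESeq2 1.42.0, its size factors, no filter, a replicate block, only the libraries compared, and each library left out. Added after seeing the data were a Y-linked covariate and MeRIP-seq without its 3 libraries under 2000000 counts.

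Equal replicate numbers paired MeRIP IP libraries across conditions by the data (deviations correlated at 0.682, 0.468 and 0.734 in the 3 pairs), but no label says so, and IP with input did not pair (-0.289 to -0.0173). RNA-seq numbers did not pair in all cases (-0.0601 to 0.574). Sites were placed in RefSeq gene spans (GRCm38.p6, strand where given); of the 66 symbols 65 matched by symbol and 1 by synonym. The members and gene lists were chosen with earlier results of these data known. The text names each member called in a comparison (or, where none was, those of smallest p per direction at a mean of at least 5 CPM), fixed landmark genes of each role, the 6 members with most miCLIP sites, and other members, such as Kif4, Kif16b and Dynlt1f, chosen after their values were seen.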

Additional observations from a re-analysis of the deposited data

How the results depend on the processing

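Injury calls in both genotypes kept the same single member, Kif22, under every alternative run, with a log2 change of 1.91 to 2.14 in wild type and 1.64 to 2.03 in Mettl14cKO. At SNLD1 the genotype difference called 4 members with DESeq2 (Kif1b, Kif21a, Kif3b and Kif5b) and 0 to 2 with each library left out; averaged over conditions it called 1 to 2 with each library left out. The replicate block changed no RNA-seq member call: at SNLD1 its adjusted p was 0.00676 for Kif21a and 0.0164 for Kif5b. For IP over input the replicate block called 2 members naive (Dync1i2 and Dynlrb1, with 1078 genes in all) and 2 at SNLD1 (Dctn2 and Dynlrb1, with 936 genes in all), where the fit without it called 0. For injury within IP libraries, whose numbers pair across conditions, the block (added after seeing the data) gave Kif22 a log2 change of 2.25 ± 0.745 (adjusted p = 0.9999), also not called. Of the miCLIP sites, 6 naive and 7 SNL ones remained at 3 or more mutated reads. Counts over all genes moved by more than 1.5 times. At SNLD1 194 genes by genotype became 416 with DESeq2, 570 without the filter and 126 with only the libraries compared. By genotype in naive, 38 became 77 with DESeq2, 191 without the filter and 61 with the Y-linked covariate. With DESeq2 and without the filter, injury in wild type went from 136 to 211 and 256, and in Mettl14cKO from 91 to 192 and 281. Injury averaged over genotypes went from 340 to 560 without the filter, and genotype averaged over conditions from 442 to 857. With each library left out, the same counts ran from 37 to 262 by genotype at SNLD1, with 37 without Mettl14cKO SNLD1 library 1, 84 without library 2 of that group, and 57 and 56 without wild-type SNLD1 libraries 1 and 3. They ran from 12 to 44 by genotype in naive, from 61 to 137 for injury in wild type, from 48 to 116 for injury in Mettl14cKO, from 212 to 372 for injury averaged over genotypes and from 228 to 507 for genotype averaged over conditions. The shares of all genes called that stand beside the motor counts move with them. The cause of these shifts was not tested. Under the Y-linked covariate Klc4 was called as well as Kif21a and Kif5b, averaged over conditions. In MeRIP-seq, libraries under 2000000 counts held 27 to 47 counts of Kif22, and without these 3 libraries 0 members were called as well.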
